A study of Mus musculus with 6 samples.

Results

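The mitochondrial carrier family was followed in mouse sensory ganglia and spinal cord through every probe set that the platform annotation ties to exactly one gene with a symbol made of Slc25a and a number. The rule found 44 genes of the 18192 measured, on 93 probe sets of the 34945 that name one gene. It used the names alone and no measured value. A further probe set named Slc25a37 together with a second gene and was left out.

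Lumbar dorsal root ganglia (DRG), which hold the cell bodies of primary sensory neurons with their satellite glia and Schwann cells, were set against lumbar spinal cord (SC), the central tissue into which those neurons project. Both came from male C57BL/6J mice aged 3 months. Total RNA was hybridised to 3' expression arrays of 45101 probe sets, 3 arrays per tissue. Each array held a pool of 4 mice and the pools of a tissue are described as independent. The labels name no treatment and none links a DRG pool with an SC pool. In pooled bulk tissue, fewer cells of a type and less RNA per cell cannot be told apart.

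Mitochondrial carriers are small membrane proteins built from repeats of one sequence element that move metabolites across the inner mitochondrial membrane, usually as an exchange of one solute for another. They pass ADP and ATP, phosphate, di- and tricarboxylates, amino acids, carnitine esters, cofactors and iron, and so connect the citric acid cycle and oxidative phosphorylation with the cytosol. Many substrates are served by closely related carriers whose use differs between tissues, and neural tissue depends on the aspartate/glutamate carriers to bring the reducing equivalents of glycolysis into mitochondria.

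Some such relatives differed in opposite directions between the tissues. Slc25a18 was higher in SC and Slc25a22 in DRG, although both carry glutamate. Among the calcium-binding carriers of ATP-magnesium and phosphate, Slc25a23 was higher in SC and Slc25a24 in DRG. The 250 bases upstream of the annotated start of these 4 genes are printed because in each of these pairs one relative was higher in each tissue. They come from RefSeq for mouse build GRCm38.p6, and read 5′ to 3′ along the gene. Slc25a18 lies on the plus strand at chr6:120773518-120773767, Slc25a22 on the minus strand at chr7:141437875-141438124, Slc25a23 on the minus strand at chr17:57059864-57060113 and Slc25a24 on the plus strand at chr3:109122899-109123148. The table holds 3 windows for Slc25a22 and 2 for Slc25a23, of which the one farthest upstream is shown. Capitals mark matches to the TATA box TATAAA, the CCAAT box CCAAT and the GC box GGGCGG on either strand.
Slc25a18: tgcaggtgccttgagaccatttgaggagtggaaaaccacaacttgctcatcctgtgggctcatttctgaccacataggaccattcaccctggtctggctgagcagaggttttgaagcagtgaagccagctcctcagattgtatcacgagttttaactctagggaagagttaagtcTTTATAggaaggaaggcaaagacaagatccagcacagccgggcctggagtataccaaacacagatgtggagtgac
Slc25a22: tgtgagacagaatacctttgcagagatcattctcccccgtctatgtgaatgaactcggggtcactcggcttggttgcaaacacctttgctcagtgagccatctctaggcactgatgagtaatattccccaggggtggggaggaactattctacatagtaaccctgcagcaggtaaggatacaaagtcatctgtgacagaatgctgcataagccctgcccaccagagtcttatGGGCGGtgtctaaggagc
Slc25a23: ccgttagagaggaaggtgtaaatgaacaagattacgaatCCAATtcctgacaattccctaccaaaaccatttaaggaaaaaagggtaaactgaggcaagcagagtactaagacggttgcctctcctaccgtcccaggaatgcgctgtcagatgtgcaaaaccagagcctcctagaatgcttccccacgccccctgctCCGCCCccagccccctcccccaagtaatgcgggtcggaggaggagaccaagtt
Slc25a24: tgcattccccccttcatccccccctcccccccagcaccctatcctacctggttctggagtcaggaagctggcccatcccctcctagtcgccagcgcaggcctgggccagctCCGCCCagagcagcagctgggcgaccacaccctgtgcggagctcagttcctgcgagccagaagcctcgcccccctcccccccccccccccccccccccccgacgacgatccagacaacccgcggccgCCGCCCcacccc
The window of Slc25a18 held a TATA box on the minus strand and no GC box or CCAAT box, whereas that of Slc25a22 held 1 GC box. The Slc25a23 window held 1 GC box and 1 CCAAT box, and the Slc25a24 window 2 GC boxes. GC content was 48.8% for Slc25a18, 50% for Slc25a22, 52.4% for Slc25a23 and 72.8% for Slc25a24.

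Windows were found for 34 of the 44 family genes, against 27025 genes in all. The 27025 are all genes with a RefSeq window and were not limited to the 18192 measured on the arrays. The family windows had a median GC content of 59.2% and a median of 14 CpG dinucleotides, against 52% and 6 over all genes. A GC box stood in 24 family windows, or 70.6%, against 33.0% of all windows. CCAAT stood in 15, or 44.1%, against 34.5%. TATAAA was found in Slc25a18 alone, 2.94% of the family windows against 13.0% of all. The NRF-1 core GCATGCGC, read for a factor of nuclear-encoded mitochondrial genes, was in the Slc25a31 and Slc25a54 windows, 5.88% against 2.31%. The CRE TGACGTCA was in that of Slc25a36, 2.94% against 1.60%, and the ERR half-site AAGGTCA in that of Slc25a34, 2.94% against 4.04%. All motifs were searched on both strands, no motif is contained in another, and a match describes these letters and not a bound site.

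Signals are given in the arbitrary units of the array, after the array scaling of the deposited values, and differences as DRG minus SC of log2(signal + 16), which understates the change of dim genes. The difference was tested with limma, and a gene was called where its p adjusted by the Benjamini-Hochberg method over all 18192 genes was under 0.05. Values after ± are limma's moderated standard errors of the difference, with 3 arrays per tissue. They draw on the variance of other genes and are not the gene's own spread alone. A signal was read as above background only where it passed, on its array, the 95th percentile of 54 probe sets for 39 genes of other organs. That level lay between 121 and 153. By it, 29 of the 44 carriers were above background on all 6 arrays, 7 on some and 8 on none. The 8 were Slc25a2, Slc25a13, Slc25a31, Slc25a32, Slc25a34, Slc25a41, Slc25a48 and Slc25a54. Each gene was read from its brightest probe set, and levels of different genes are not compared because probe sets differ in brightness.

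Over the family, 19 genes were called higher in DRG, 6 were called higher in SC and 19 were not called. This is 43.2% of the family higher in DRG, where 32.7% of all genes were called so, and 13.6% higher in SC, where the share over all genes was 10.2%. At a difference of 2-fold or more, 3 carriers were called higher in DRG (Slc25a24, Slc25a46 and Slc25a53) and 3 in SC (Slc25a13, Slc25a18 and Slc25a23), with background shares of 11.6% and 4.84%. Slc25a13 is in this count by its tested difference, although its signals were under the background level on all arrays. The median difference over the family was 0.38, and that over all genes 0.18. All 3 DRG values stood above all 3 SC values in 22 carriers and below them in 6, where 37.9% and 13.8% of all genes were separated in these directions. The genes not called ranged from -0.38 to 0.63.

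This balance between the tissues depended on how the arrays were scaled. The median of all genes was 0.18 with the deposited scaling, 0.03 after quantile normalization and -0.10 on the unscaled signals, those before the deposited array scaling. After quantile normalization 7 carriers were called higher in DRG, at a background of 21.0%, and 12 higher in SC, at 17.1%. On the unscaled signals the counts were 9 and 11, at backgrounds of 19.7% and 20.5%. Relative to the median of all genes, the family median differed by 0.20 with the deposited scaling, -0.04 after quantile normalization and 0.13 on the unscaled signals. Among genes above the median signal, 18 of 33 carriers were called toward DRG and 6 toward SC, where 57.1% and 13.9% of such genes were called. The median of these 33 carriers was 0.38, and that of the 9096 genes 0.39.

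A call and its direction held under all 3 scalings for 13 carriers, 7 higher in DRG (Slc25a16, Slc25a22, Slc25a24, Slc25a30, Slc25a46, Slc25a51 and Slc25a53) and 6 higher in SC (Slc25a13, Slc25a15, Slc25a18, Slc25a23, Slc25a25 and Slc25a27). These are 15.9% and 13.6% of the family, where 17.8% and 10.1% of all genes held in this way. The other 12 calls toward DRG lost significance or turned under at least 1 of them. Leaving out 1 array at a time gave 18 to 19 calls toward DRG and 3 to 5 toward SC. The count toward SC fell to 3 without DRG replicate 2, without SC replicate 1 and without SC replicate 2. Slc25a13, Slc25a18 and Slc25a23 kept their calls each time.

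**Figure D1:**
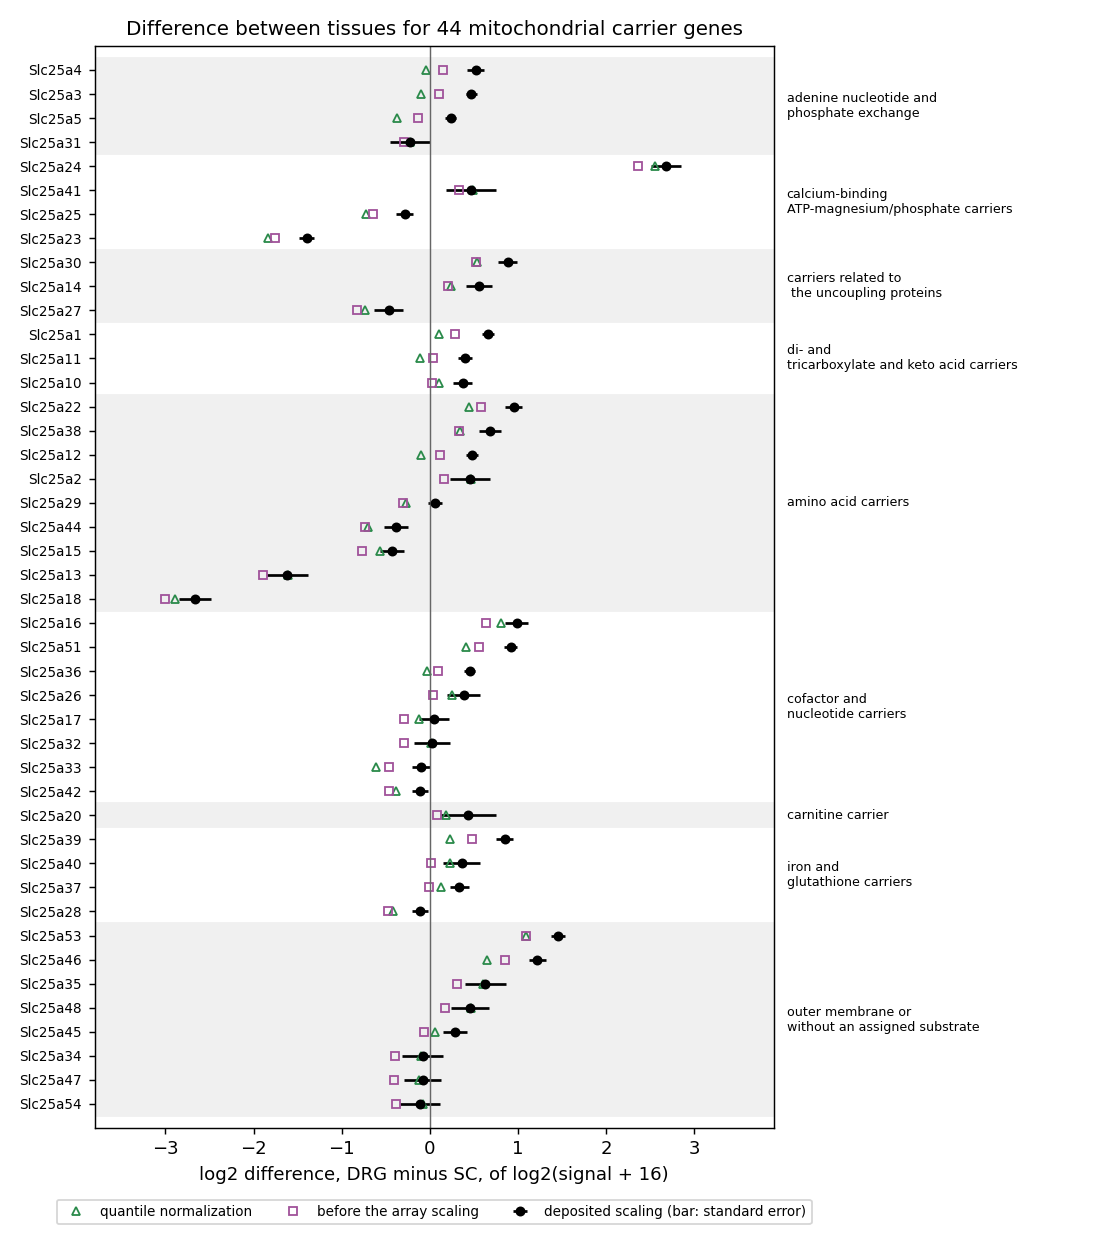
Difference between DRG and SC for the 44 carrier genes, as DRG minus SC of log2(signal + 16), grouped by role. Filled points and bars give the deposited scaling with its standard error, triangles quantile normalization and squares the values before the deposited scaling; Slc25a24 stands farthest to the right at 2.68 and Slc25a18 farthest to the left at -2.67.

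The exchangers of adenine nucleotides and phosphate supply oxidative phosphorylation with its substrates. Of the 4, Slc25a3, Slc25a4 and Slc25a5 were called toward DRG and none toward SC, with a median of 0.35, but after quantile normalization 0 were called higher in DRG and 1 higher in SC. Slc25a4 encodes the adenine nucleotide translocase of post-mitotic tissue such as muscle and brain. Its signals read 7174, 8013 and 8039 in DRG and 5919, 4676 and 5653 in SC, so the tissues did not overlap. The difference was 0.52 ± 0.10 (limma adjusted p = 0.00206), against -0.04 after quantile normalization and 0.15 on the unscaled signals. Slc25a5, a translocase found in most tissues, gave 3710.4, 3737 and 3618 in DRG and 3261, 3004 and 3129 in SC, with no overlap. Its difference of 0.24 ± 0.063 (limma adjusted p = 0.0126) turned to -0.37 after quantile normalization, a call toward SC, and to -0.13 on the unscaled signals. The probe set read for it has the suffix _x_at, which marks probes shared with other sequences. No direction can be given for Slc25a5 apart from the scaling. Slc25a31, the translocase known from male germ cells, stood at 2.08, 2.96 and 1.86 in DRG and 2.31, 2.19 and 13.3 in SC. All 6 values were far under the background level and no fold is given. Slc25a3, the phosphate carrier, had a difference of 0.47 with the deposited scaling, -0.10 after quantile normalization and 0.10 on the unscaled signals.

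The carriers of ATP-magnesium against phosphate change the adenine nucleotide content of the matrix, and 3 of the 4 carry calcium-binding EF-hands. They moved in opposite directions. Slc25a24 gave 314, 330.3 and 382 in DRG and 36.1, 40.9 and 42.7 in SC. All DRG arrays were above the background level and all SC arrays under it. The difference was 2.68 ± 0.17 (limma adjusted p = 1.47e-06), and with SC held at the background level DRG was at least 2.61-fold higher. Slc25a23 gave 451, 406 and 492 in DRG and 1199, 1161 and 1252 in SC. Here every SC array stood above every DRG array. Its difference was -1.39 ± 0.085 (limma adjusted p = 1.13e-06), and -1.83 and -1.76 under quantile normalization and on the unscaled signals. Slc25a25 gave 596, 623 and 659.8 in DRG and 733, 875 and 697 in SC, separated by a narrow gap. Its difference of -0.28 ± 0.10 (limma adjusted p = 0.0389) was called, but not without DRG replicate 1 or 2, nor without SC replicate 1 or 2, where the adjusted p lay between 0.0601 and 0.143. Under quantile normalization it was -0.72 and on the unscaled signals -0.65. The call was also lost without the limma trend (limma adjusted p = 0.109) and with the 3 probe sets averaged (limma adjusted p = 0.186). Those probe sets ran from -1.22, called toward SC, to 0.60, not called. Slc25a41, a short relative without EF-hands, was under the background level on all arrays.

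**Figure D2:**
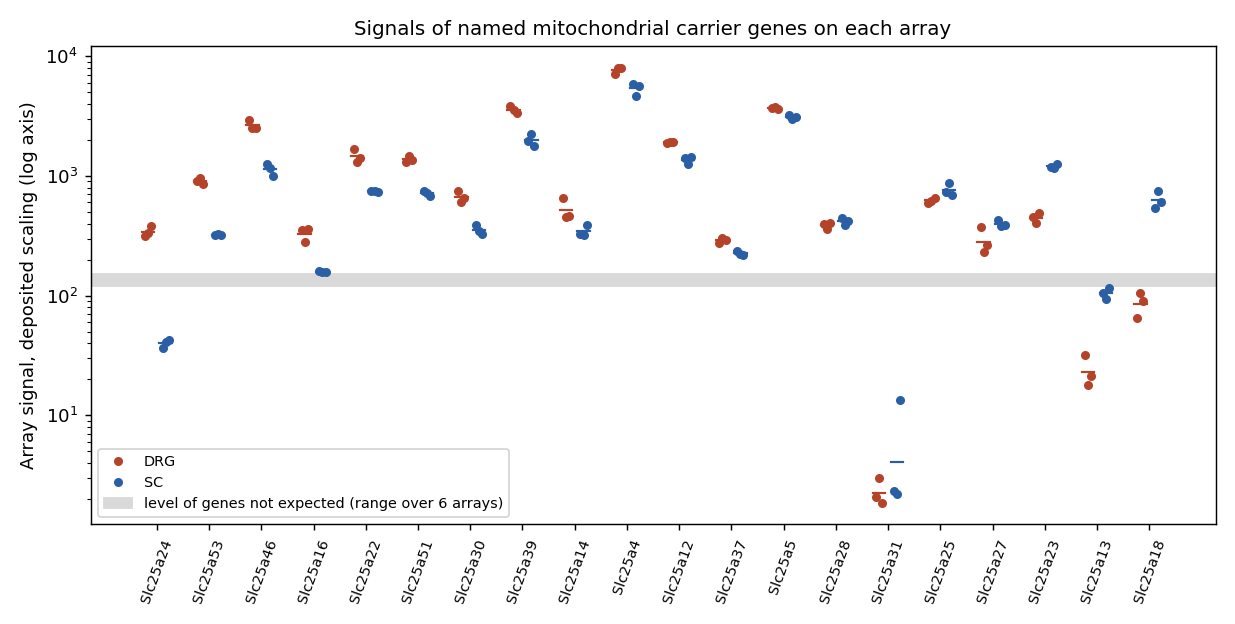
Signal of the 20 carrier genes described singly on each array, on a log axis in arbitrary units, with DRG and SC points side by side, lines at the geometric mean and a band for the background level of 121 to 153. Slc25a24 in SC and Slc25a18 in DRG lie under the band while the other tissue lies above it, and Slc25a13 lies under it in both.

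Slc25a14, Slc25a27 and Slc25a30 are close relatives of the uncoupling proteins, and the first of these and Slc25a27 are known from neurons. Signals of Slc25a30 read 752, 603 and 649 in DRG and 393, 343 and 326 in SC, all DRG arrays being higher. The difference was 0.88 ± 0.11 (limma adjusted p = 1.14e-04), with 0.54 and 0.52 under quantile normalization and on the unscaled signals. Slc25a14 gave 654, 455 and 460.4 in DRG, with replicate 1 the highest, and 327, 320.4 and 390.1 in SC, without overlap. Its difference of 0.56 ± 0.15 (limma adjusted p = 0.0119) was not called under either of the other scalings, at 0.24 and 0.20. Slc25a27 ran the other way. It gave 371, 229.7 and 266 in DRG and 430.4, 378 and 387 in SC, where DRG replicate 1 came close to the SC values. The difference was -0.47 ± 0.16 (limma adjusted p = 0.0411), and -0.74 after quantile normalization and -0.82 on the unscaled signals. The call was lost when any array other than DRG replicate 1 was left out, with adjusted p between 0.0747 and 0.129. It was also lost without the limma trend (limma adjusted p = 0.0884) and with its 4 probe sets averaged (limma adjusted p = 0.0535).

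The carriers of citrate (Slc25a1), of dicarboxylates (Slc25a10) and of 2-oxoglutarate against malate (Slc25a11) link the citric acid cycle with cytosolic lipid synthesis and redox shuttles. All 3 were called higher in DRG, by 0.66, 0.38 and 0.40. After quantile normalization none of the 3 was called in either direction, and their differences were 0.10, 0.11 and -0.11. On the unscaled signals Slc25a1 kept its call at 0.29, while Slc25a10 and Slc25a11 were not called. A second, dimmer probe set of Slc25a10 gave -0.27 and was not called. With its 2 probe sets averaged, the difference of Slc25a10 was 0.05 (limma adjusted p = 0.786).

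With the deposited scaling the 9 amino acid carriers had 3 calls in each direction and a median of 0.06. The other scalings each gave 1 call toward DRG and 5 toward SC, with medians of -0.27 after quantile normalization and -0.30 on the unscaled signals. Slc25a18 and Slc25a22 both bring glutamate into the matrix together with a proton. The signals of Slc25a18 read 64.4, 105 and 90.3 in DRG, all under the background level, and 542, 747 and 603 in SC. The tissues were far apart, with a difference of -2.67 ± 0.18 (limma adjusted p = 2.22e-06), and SC was at least 4.56-fold higher with DRG held at the background level. Slc25a22, the carrier with which an inherited neonatal epilepsy is associated, gave 1681, 1306 and 1419.8 in DRG and 755, 752 and 739 in SC. Every DRG array was higher, by 0.95 ± 0.092 (limma adjusted p = 2.42e-05). After quantile normalization the difference of Slc25a22 was 0.44 and that of Slc25a18 -2.89; on the unscaled signals they were 0.58 and -3.00.

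Slc25a12 (aralar) and Slc25a13 (citrin) exchange aspartate for glutamate and form part of the malate-aspartate shuttle. Slc25a12, the form of brain and muscle, gave 1885, 1919.9 and 1939 in DRG and 1414, 1263 and 1427 in SC, without overlap. Its difference was 0.48 ± 0.068 (limma adjusted p = 2.97e-04), but -0.10 after quantile normalization and 0.11 on the unscaled signals, neither of which was called. A second probe set of Slc25a12 read 772, 837 and 759 in DRG and 802, 929 and 681 in SC. It gave -0.02 and was not called. With the 3 probe sets of Slc25a12 averaged, the difference was 0.09 (limma adjusted p = 0.317). Slc25a13, the form of liver, gave 31.6, 18 and 21.4 in DRG and 105, 93.4 and 116 in SC. Its difference of -1.62 ± 0.23 (limma adjusted p = 3.26e-04) lay wholly under the background level, so no fold is given.

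Among the other amino acid carriers, the ornithine carrier Slc25a15 was called higher in SC at -0.43, with -0.56 and -0.77 under the other scalings. Slc25a38, which brings glycine in for heme synthesis, was called higher in DRG by 0.69, and narrowly lost that call under both other scalings. It stood at 0.34 after quantile normalization (limma adjusted p = 0.0517) and 0.33 on the unscaled signals (limma adjusted p = 0.0526). Slc25a44, a carrier of branched-chain amino acids, and Slc25a29, a carrier of basic amino acids, were not called with the deposited scaling, at -0.38 and 0.06. Both were called toward SC under the other scalings, Slc25a44 at -0.70 after quantile normalization and -0.74 on the unscaled signals, and Slc25a29 at -0.27 and -0.30. A second probe set of Slc25a44 was called higher in SC at -0.67 with the deposited scaling, and a further one was not called. With its 3 probe sets averaged, Slc25a44 was called at -0.37 (limma adjusted p = 0.00948). Slc25a2, a second ornithine carrier, was under the background level throughout.

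Of 8 carriers of cofactors and nucleotides, 3 were called higher in DRG and 0 in SC with the deposited scaling, but 2 in each direction under both other scalings. Slc25a51, the carrier of NAD+, gave 1309, 1471 and 1347 in DRG and 754, 717 and 686 in SC, with a wide gap between them. The difference was 0.92 ± 0.073 (limma adjusted p = 6.23e-06), with 0.42 and 0.55 under quantile normalization and on the unscaled signals. A second probe set of Slc25a51 was also called, but only at 0.28. It read 702, 724 and 780 in DRG and 570, 658 and 585 in SC. Another was under the background level and not called. Slc25a16, linked to coenzyme A transport, gave 356, 281 and 359 in DRG and 161, 157 and 158 in SC, where the arrays hardly differed among themselves and stood just above the background level. It was higher in DRG on every array, by 0.99 ± 0.13 (limma adjusted p = 2.04e-04), and by 0.81 and 0.64 under the other scalings. The pyrimidine nucleotide carrier Slc25a36 was called at 0.45, against -0.03 after quantile normalization. Its second probe set gave -0.09 and was not called. With the 3 probe sets of Slc25a36 averaged, the difference was 0.15 (limma adjusted p = 0.203). Not called were Slc25a17 of peroxisomes, the S-adenosylmethionine carrier Slc25a26, the folate and FAD carrier Slc25a32, the pyrimidine nucleotide carrier Slc25a33 and the coenzyme A carrier Slc25a42, between -0.11 and 0.38. Of these, Slc25a33 and Slc25a42 were called toward SC under both other scalings, Slc25a33 at -0.61 and -0.47 and Slc25a42 at -0.38 and -0.47.

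Slc25a20, which exchanges acylcarnitine for carnitine, had scattered values of 224, 432 and 534 in DRG and 224, 399 and 222 in SC. Values of the tissues overlapped, and the difference of 0.44 was not called (limma adjusted p = 0.310). Its second probe set read 313, 287 and 304 in DRG and 200.3, 205 and 162 in SC, without overlap. It was called at 0.63 in the probe set test, so the probe sets of this gene did not give one answer.

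The mitoferrins Slc25a37 and Slc25a28 bring iron into the matrix, the first chiefly in developing red cells and the second in most tissues. Slc25a37 gave 277, 304 and 289.8 in DRG and 237, 224 and 219 in SC, without overlap. The difference of 0.34 ± 0.11 (limma adjusted p = 0.0305) had an adjusted p of 0.0644 with the replicate number as a block, and was 0.13 after quantile normalization and -0.01 on the unscaled signals. Leaving out DRG replicate 2 or 3 or SC replicate 2 or 3 also ended the call, with adjusted p between 0.0708 and 0.0862. Slc25a28 gave 396, 363 and 406 in DRG and 447, 392 and 423 in SC, with overlapping values. Its difference of -0.11 ± 0.093 was not called (limma adjusted p = 0.391), but became a call toward SC at -0.42 after quantile normalization and -0.47 on the unscaled signals.

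Slc25a39 and Slc25a40 carry glutathione into mitochondria. Signals of Slc25a39 read 3844, 3564 and 3349 in DRG and 1957, 2238 and 1776 in SC, all DRG arrays being higher. The difference was 0.85 ± 0.093 (limma adjusted p = 5.59e-05), and 0.23 with an adjusted p of 0.0886 after quantile normalization. On the unscaled signals the difference was 0.48 and was called. Its 4 bright probe sets all have suffixes that mark shared or multiple targets, and all 4 were called higher in DRG, from 0.32 to 1.00. Slc25a40 was not called, at 0.36.

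Slc25a46 belongs to the family by sequence but sits in the outer mitochondrial membrane, where it takes part in mitochondrial shape and division, and its loss causes an inherited neuropathy with optic atrophy. Its signals read 2942, 2532 and 2541 in DRG and 1258, 1160.4 and 999 in SC. Every DRG array stood above every SC array. The difference was 1.22 ± 0.10 (limma adjusted p = 6.44e-06), and its second probe set gave 0.95; after quantile normalization the first gave 0.65 and on the unscaled signals 0.85. Slc25a53, a carrier with no assigned substrate, gave 899, 966 and 862 in DRG and 318, 326 and 320.3 in SC. All SC arrays lay close together and far under the DRG arrays, with a difference of 1.45 ± 0.077 (limma adjusted p = 4.88e-07), and 1.09 and 1.09 under the other scalings. Slc25a34, Slc25a35, Slc25a45, Slc25a47, Slc25a48 and Slc25a54 were not called, between -0.11 and 0.63.

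Ratios of relatives within an array do not change when the whole array is multiplied by a factor, as the deposited scaling does, although quantile normalization would change them. For 8 pairs, the log2 ratio was taken on each array and compared between tissues. Between tissues the ratio of Slc25a18 to Slc25a22 was at least 8.90 times higher in SC, with Slc25a18 held at the background level in DRG. Likewise, Slc25a23 over Slc25a24 was at least 7.02 times higher in SC, and Slc25a25 over Slc25a24 at least 3.20 times, with Slc25a24 held at the background level in SC. Slc25a27 over Slc25a30 was 2.65 times higher in SC and Slc25a27 over Slc25a14 2.10 times. The ratios of Slc25a28 to Slc25a37, 1.39 times higher in SC, and of Slc25a5 to Slc25a4, 1.22 times higher, shifted less. The measured ratio of Slc25a13 to Slc25a12 was also higher in SC, by 2.67 on the log2 scale, but rests on signals of Slc25a13 under the background level. All 8 ratios were separated between the tissues. Except for Slc25a28 over Slc25a37 and Slc25a5 over Slc25a4, this had to follow from the single genes. In those other pairs the first gene was itself separated toward SC and the second toward DRG. The gene leaning more toward SC was written first in each pair, so the shared direction is set by that order. Slc25a24 and Slc25a27 each enter more than 1 pair. Each two-sided exact permutation p was 0.10, adjusted 0.10, which is the smallest that 3 arrays against 3 can give, so none could pass 0.05. A ratio that shifts shows unequal change of 2 genes, not which of them changed. The 8 pairs were chosen, and Slc25a14 over Slc25a30 was not among them. No share of separated ratios over other gene pairs was computed. Of single genes, 37.9% were separated toward DRG and 13.8% toward SC.

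**Figure D3:**
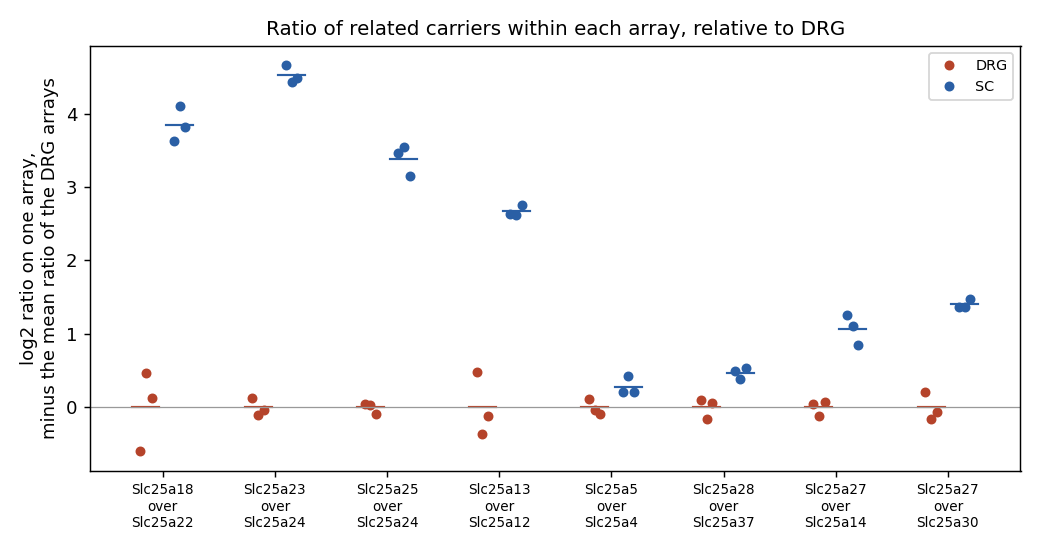
Log2 ratio of 8 pairs of related carriers on each array, minus the mean ratio of the DRG arrays, with lines at the tissue means. The gene leaning more toward SC is written first in each pair, which sets the direction. All SC points lie above all DRG points, from a shift of 0.28 for Slc25a5 over Slc25a4 to 4.52 for Slc25a23 over Slc25a24. Measured signals under the background level enter as they are.

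Of the 93 probe sets, 34 were called higher in DRG, at a background of 27.0% over 34937 probe sets, and 10 higher in SC, at 11.1%. The other 49 were not called, and 25 were under the background level on every array. Of the 23 genes with several probe sets, 0 were called in both directions. All probe sets were called one way for Slc25a15, Slc25a24, Slc25a46 and Slc25a53. The second probe set of Slc25a15 read 43.2, 26.4 and 31.5 in DRG and 122, 126 and 139 in SC. That is the same direction as the first, with only 1 of these 6 values above the background level. A probe set of Slc25a30 other than the one described above gave 308, 239 and 279 in DRG and 142, 91.0 and 76.5 in SC, a call at 1.32. Another, brighter probe set of Slc25a30 was called at only 0.41, with DRG signals of 526 to 536 against SC signals of 377 to 421. Its remaining 2 probe sets, under the background level on all arrays, were not called, at 0.08 and -0.16. Averaging all 5 gave a difference of 0.51 (limma adjusted p = 0.00935), against 0.88 from the brightest. Of the 8 probe sets of Slc25a5, 3 were called higher in DRG and 5 were not called, with differences from -0.10 to 0.44.

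Genes that work beside the carriers were counted from lists of their pathways. For the lists below, the shares of all genes called toward DRG and SC were 32.7% and 10.2% with the deposited scaling. They were 21.0% and 17.1% after quantile normalization and 19.7% and 20.5% on the unscaled signals. Among genes above the median signal, 57.1% and 13.9% were called with the deposited scaling. Among 4 measured carriers with symbols outside the Slc25a series, the outer-membrane insertase Mtch2 was higher in DRG at 1.02, and Mtch1 at 0.60 with the deposited scaling but -0.02 after quantile normalization. Ucp3, the uncoupling protein of muscle, was higher in SC on all arrays, with 129, 168 and 150.0 against 69, 78.3 and 70.9 in DRG. Its DRG values were under the background level and SC was at least 1.08-fold higher. Ucp1 of brown fat was under that level in both tissues and not called.

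Of 15 ATP synthase subunits, 14 were called higher in DRG and 0 in SC with the deposited scaling, led by Atp5d at 0.91 and Atp5l at 0.87. Quantile normalization gave 3 calls toward DRG and 6 toward SC, and the unscaled signals 3 and 1. Of 19 genes of the citric acid cycle and pyruvate dehydrogenase, 11 were called higher in DRG, led by Sdhd at 0.95 and Pdha1 at 0.87, and 1 higher in SC. That 1 was pyruvate carboxylase, Pcx, at -0.54. Quantile normalization gave 4 and 8 calls, and the unscaled signals 7 and 7. The median of each of these lists was above 0 with the deposited scaling and on the unscaled signals, and under 0 after quantile normalization.

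Genes of the carnitine shuttle and of fatty acid oxidation did not depend on the scaling in this way. Of 9 measured, 8 were called toward DRG and 0 toward SC, their median being 0.95, and 6 and 7 under the other scalings with 0 toward SC. Acadl and Cpt2, an acyl-CoA dehydrogenase and the inner carnitine palmitoyltransferase, led at 1.62 and 1.24. The carrier of this pathway, Slc25a20, was not called from its brightest probe set.

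The 6 shuttle enzymes that carry reducing equivalents beside Slc25a11, Slc25a12 and Slc25a13 had 3 calls in each direction with the deposited scaling. Got2 and Mdh2 of the matrix were higher in DRG at 0.73 and 0.69 and Mdh1 was also called there, while Gpd1, Gpd2 and Got1 were called higher in SC. The largest difference was that of Gpd1, glycerol-3-phosphate dehydrogenase of the cytosol, at -1.91, followed by Gpd2 at -0.56. After quantile normalization Got2 and Mdh2 stood at 0.12 and 0.08 and were not called, Mdh1 turned to -0.38, a call toward SC, and Gpd1 stood at -2.18, so that 0 of the 6 were called higher in DRG and 4 higher in SC. On the unscaled signals the calls were 2 and 3.

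Among 6 enzymes of glutamate, ornithine and proline, 3 were called in each direction, under all 3 scalings. Glutamine synthetase, Glul, and proline dehydrogenase, Prodh, led toward SC at -0.99 and -0.64, with glutamate dehydrogenase, Glud1, as the third. Toward DRG, Arg2 stood at 1.09 with signals under the background level and Aldh18a1 at 0.83. Among 8 enzymes of heme and iron-sulfur clusters, 5 were called higher in DRG and 1, Cpox, higher in SC at -1.10. Quantile normalization gave 1 call toward DRG and 2 toward SC, and the unscaled signals 2 and 2. The 5 included Alas2, at 1.73 on signals under the background level, and Nfs1 at 0.66, which stood at 0.20 and was not called after quantile normalization.

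Of 7 outer membrane channels and import pores, 6 were called higher in DRG, led by Tomm70a at 1.22 and Tomm22 at 0.67, and 0 in SC. Quantile normalization gave 1 call toward DRG and 2 toward SC, and the unscaled signals 4 and 1. Of 7 other inner membrane transporters, 3 were called higher in DRG, led by the sideroflexins Sfxn3 at 1.38 and Sfxn1 at 0.80, and another sideroflexin, Sfxn5, was higher in SC at -0.98. These sideroflexins kept their directions under both other scalings, Sfxn5 with -1.30 and -1.34.

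**Figure D4:**
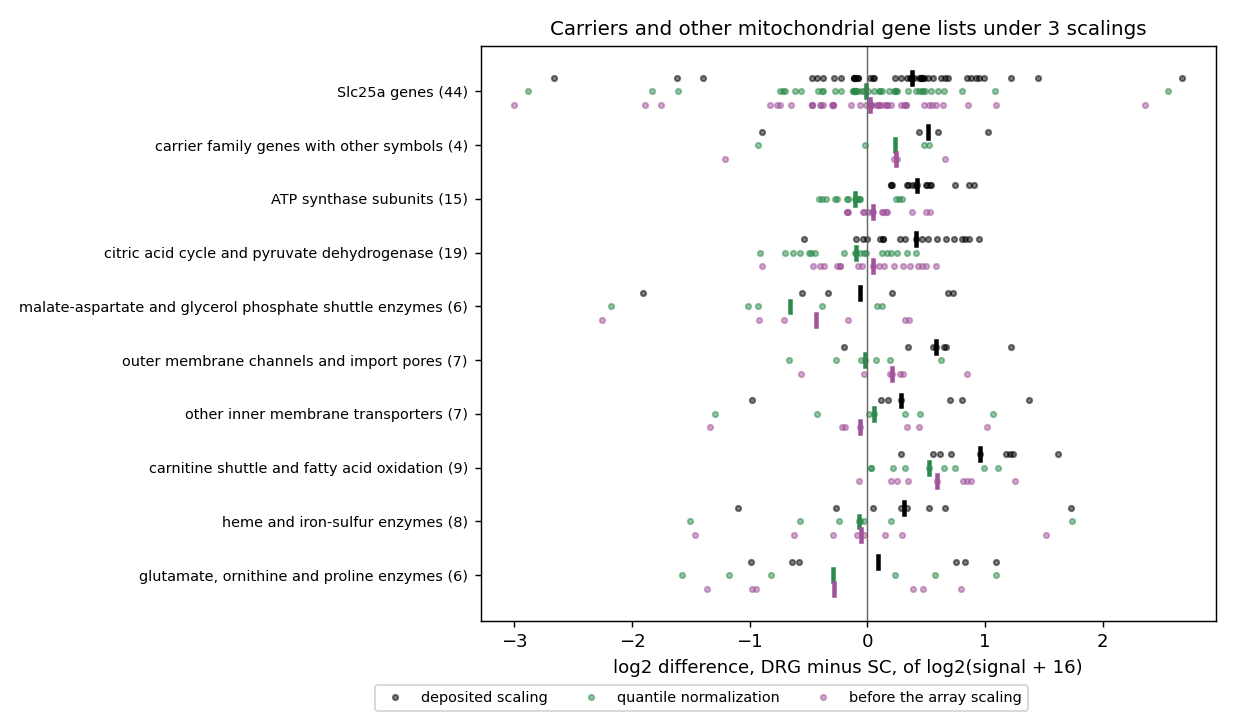
Difference of each gene, DRG minus SC of log2(signal + 16), for the carriers and 9 lists of mitochondrial partner genes with the number measured, as points with a bar at the median, under 3 scalings. The medians of the carriers, at 0.38, -0.010 and 0.026, shift toward SC away from the deposited scaling, while fatty acid oxidation stays at or above 0.52.

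The cell types of the tissues differed as labelled. All 6 sensory neuron markers, 5 of 5 markers of Schwann and satellite glia and 5 of 5 of fibroblasts were called higher in DRG. In SC, 6 of 6 astrocyte markers, 5 of 5 of oligodendrocytes and 5 of 6 of spinal inhibitory and motor neurons were higher, Chat being the exception. Chat was under the background level on all arrays, and on the unscaled signals all 6 were called toward SC. The summed signal of the astrocyte markers was 1120 to 1186 in DRG and 18829 to 21160 in SC, that of the oligodendrocyte markers 200.3 to 283 and 7180 to 7792, and that of the sensory neuron markers 22366 to 23493 and 547 to 678. Slc25a18 and Slc25a23 were higher in SC, as were most markers of astrocytes, oligodendrocytes, spinal inhibitory and motor neurons, and macrophages and microglia. Slc25a24 was higher in DRG, as were those of sensory neurons, Schwann and satellite glia and fibroblasts. Any gene higher in a tissue goes with every marker set higher there, so no cell type is picked out. The part of any cell type in these differences was not tested. Of 5 macrophage and microglia markers 3 were called higher in SC, and of 5 endothelial markers 1 each way. The macrophage and microglia markers Aif1, Cx3cr1 and Cd68 were under the background level on all arrays. Skeletal muscle markers were called in neither direction for 6 of 6, and their summed signal spread widely in both tissues, from 429.9 to 1566 in DRG and from 459 to 1901 in SC. Of 3 adipocyte markers 1 was called higher in DRG, with summed signals of 101 to 142 in DRG and 45.9 to 85.3 in SC. All 3 were under the background level on every array, so they are not read as expression. Red blood cell markers had 1 of 5 called higher in DRG, Alas2, on signals under the background level. They summed to 256 to 486 in DRG and 124 to 366 in SC.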

How the data were processed

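MAS5 is the tool that the submitters' processing notes name, without a version. What was deposited are linear ratios: per the values themselves, an array signal divided by an array factor and by the probe set's median, which was 1 within 1e-05 in 91.8% of probe sets, while 8.21% of them, all dim, were divided by a fixed limit. No source used here gives other steps. Signals were recovered for 45093 of 45101 probe sets from the 0.1 steps in which MAS5 writes them (Python 3.11.15, numba 0.67.0); 65 values at the floor of 0.01 are upper bounds. On values built with known signals, 98.3% came back exactly, 1.67% differed by a factor common to all arrays and 0% were otherwise wrong. The array factors were 84.5 to 89.5 for DRG and 110.5 to 112.6 for SC, near the median signals of 82.6 to 87.5 and 108.3 to 110; multiplied back with their geometric mean they give the deposited scaling used here. The number of arrays limits the precision.

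Genes were named with the platform annotation. It gives 1 gene for 34945 probe sets, several for 932 and none for 9160, beside 64 controls. limma 3.58.1 (R 4.3.3; lmFit, eBayes with trend) was fitted to log2(signal + 16) over the brightest probe set of each of 18192 genes, and over 34937 probe sets. Calls took a Benjamini-Hochberg adjusted p under 0.05. The script was tested on simulated data. Family genes with a called difference of 0.7 or more in size, and close relatives whatever their result, are described singly; others are given by counts and ranges, and each partner list by up to 2 called genes in each direction with the largest differences, with some others named after their values were seen. The members and lists were chosen with earlier results of these data known. Ratios of relatives were compared with an exact permutation test. Same-numbered DRG and SC arrays had deviations correlated at 0.0084, -0.032 and -0.0014, so the numbers were not taken as pairs. Alternatives were 2 other scalings, pseudocounts of 1 and 64, the log2 of the deposited ratios, a filter on dim genes, an average over each gene's probe sets, _x_at, _s_at and _a_at probe sets left out, no trend, a replicate block and each array left out. Columns of per-sample values not used numbered 0.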

Additional observations from a re-analysis of the deposited data

How the results depend on the processing

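Of the 18 called genes described singly, 10 kept their call and direction under all 16 alternatives, where fitted: Slc25a13, Slc25a16, Slc25a18, Slc25a22, Slc25a23, Slc25a24, Slc25a30, Slc25a46, Slc25a51 and Slc25a53. The family counts followed the scaling, from 19 higher in DRG and 6 higher in SC to 7 and 12 after quantile normalization and 9 and 11 before the array scaling. Its median of 0.38 became -0.010 and 0.026 under these, 0.28 with a pseudocount of 64, 0.15 when each gene's probe sets were averaged and 0.32 without the _x_at, _s_at and _a_at probe sets, over 40 genes. Leaving out 1 array gave 3 to 5 calls toward SC and medians of 0.33 to 0.39. Slc25a4, Slc25a5 and Slc25a12 turned to -0.042, -0.37 and -0.10 after quantile normalization, Slc25a5 and Slc25a37 to -0.13 and -0.014 before the array scaling, and Slc25a39 to -0.031 without the _x_at, _s_at and _a_at probe sets, which leaves it a probe set under the background level. Beyond the scaling itself and the probe sets left out, the cause was not tested. With the replicate number as a block, 18 genes were called higher in DRG and 6 in SC; the block ended the call of Slc25a37 and of no other gene described singly. The 8 genes under the background level give no fold, and 3 arrays per tissue limit small differences.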

Other observations

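Several dim probe sets had 1 array that stood off from the other 2 of its tissue. Slc25a31 read 13.3 on SC replicate 3 and 2.31 and 2.19 on the other SC arrays. The second probe set of Slc25a53 read 4.18 on SC replicate 3 and 40.5 and 49.6 on the others, and the second probe set of Slc25a24 read 9.41 there and 47.1 and 36.3 on the others. Another probe set of Slc25a25 read 33.6 on SC replicate 3, 131 and 111 on the other SC arrays and 105 to 148 in DRG. Apart from 1 DRG and 1 SC value of this last probe set, all these values were under the background level. Slc25a20, above that level on all arrays, had DRG replicate 1 at 224 beside 432 and 534, and SC replicate 2 at 399 beside 224 and 222.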
